A study of Homo sapiens with 9 samples.

Results

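Divergent promoter lncRNAs are long noncoding RNAs transcribed away from a coding gene, from a start on the opposite strand at or near the same promoter. In U2-OS cells, a human osteosarcoma line, 170 such genes were described here out of 587 lncRNA genes whose symbol ends in -DT and 60609 gene identifiers counted in all. They were chosen by that ending and by at least 450 counts on the gene's strand summed over the 9 libraries, so their abundance is a property of the choice and was not tested. H2AZ1-DT (453 counts) and KCTD13-DT (463) lay just inside this limit, and TNKS2-DT (444) and GNAO1-DT (442) just outside it. The coding gene that each lncRNA is named after was read beside it, and all 170 of these paired genes were annotated as protein-coding, on the same chromosome and the opposite strand.

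RNA was sequenced after depletion of ribosomal RNA, although the labels' molecule field names polyadenylated RNA. In all, 3 groups of 3 libraries each, replicates A, B and C, were compared: clone A1 and clone A4, both overexpressing the cap-binding protein NCBP2, and a vector group made of 3 separate empty-vector clones. The NCBP2 arm, the 6 libraries of clones A1 and A4, therefore rests on 2 clones. No label says whether the 3 libraries of an NCBP2 clone were separate cultures, so p-values measure the spread between these libraries, which may be technical.

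Mammalian promoters often fire in both directions. The strand facing away from the coding gene usually gives a capped but unstable RNA. The nuclear cap-binding complex of NCBP1 and NCBP2 sits on such caps and connects them, through partners such as ARS2 (SRRT) and ZC3H18, to termination and to decay by the nuclear exosome, while U1 snRNP at 5′ splice sites protects the coding transcript from early cleavage at poly(A) signals. The comparison with the vector clones asks how levels of these RNAs stand in cells with more NCBP2.

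Levels are given in CPM, gene counts scaled to the size of the library. NCBP2 itself stood at 98.4, 90.6 and 98.3 CPM with the vector, 298.9, 348.4 and 304.7 CPM for clone A1 and 796.3, 1035 and 456.2 CPM for clone A4 (replicates A, B and C, in that order here and in what follows). Its log2 fold change was 2.50 in the arm (edgeR adjusted p 0.123), 1.73 in clone A1 (adjusted p 0.0327) and 2.99 in clone A4 (adjusted p 0.000417). Gene counts per library ranged from 29234022 to 50554080, of which the 170 lncRNAs held 0.117% to 0.162%. Clone A1 replicate A stood apart: it had the fewest gene counts, detected 21823 genes against 25390 to 29787 in the other libraries, and correlated with them at r = 0.937 to 0.967 across genes, against 0.969 to 0.989 for the 28 other pairs. The mesenchymal genes VIM, SPARC, COL1A1, FN1, RUNX2 and CD44 were present in every library, the lowest value being 99.5 CPM for CD44, COL1A2 reached at most 1.15 CPM, and TERT and CDKN2A were at 0. Of the other cell types' markers, KRT8 and KRT18 reached 107.7 and 101.5 CPM, RBFOX3 reached 13.6 CPM, and the other 12 genes stayed at or below 5.58 CPM.

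The intervals that these lncRNAs share with their paired genes are mostly short, rich in GC and without the TATA letters. The lines below give the whole interval between the outermost annotated starts of 6 pairs, on the lncRNA's strand, from GENCODE release 44 and the GRCh38 genome, with 3 searched motifs in capitals: GGGCGG (the GC box), CCAAT and CCGGAAGT (a site of ETS factors), each on either strand, so that their reverse complements are in capitals too. NIPBL-DT and RAB30-DT are shown as abundant lncRNAs close to their coding genes in level, C2orf74-DT for the highest ratio to its coding gene, AP1AR-DT and PAXIP1-DT as lncRNAs lower in all NCBP2 libraries, and CAMSAP1-DT for its run of GC boxes.
NIPBL-DT: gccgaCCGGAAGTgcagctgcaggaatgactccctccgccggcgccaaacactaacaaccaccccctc
RAB30-DT: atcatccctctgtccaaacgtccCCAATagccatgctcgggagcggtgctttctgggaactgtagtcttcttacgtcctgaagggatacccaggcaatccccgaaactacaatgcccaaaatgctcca
C2orf74-DT: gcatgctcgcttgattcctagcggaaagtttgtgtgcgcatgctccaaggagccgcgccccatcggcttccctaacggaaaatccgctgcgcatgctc
AP1AR-DT: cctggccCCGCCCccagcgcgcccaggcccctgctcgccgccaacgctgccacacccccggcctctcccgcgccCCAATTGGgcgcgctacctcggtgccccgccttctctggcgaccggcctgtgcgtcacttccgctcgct
PAXIP1-DT: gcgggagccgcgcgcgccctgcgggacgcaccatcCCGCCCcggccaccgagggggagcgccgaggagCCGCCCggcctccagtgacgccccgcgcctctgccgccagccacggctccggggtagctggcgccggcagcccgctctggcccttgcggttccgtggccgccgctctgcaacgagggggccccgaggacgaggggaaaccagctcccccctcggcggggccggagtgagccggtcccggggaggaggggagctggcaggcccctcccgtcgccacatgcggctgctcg
CAMSAP1-DT: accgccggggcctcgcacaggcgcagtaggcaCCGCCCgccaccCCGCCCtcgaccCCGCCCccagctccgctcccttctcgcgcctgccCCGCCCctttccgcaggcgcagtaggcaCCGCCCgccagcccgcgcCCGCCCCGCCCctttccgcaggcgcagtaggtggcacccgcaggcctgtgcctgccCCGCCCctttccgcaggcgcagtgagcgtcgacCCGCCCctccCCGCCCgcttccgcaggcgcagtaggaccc
These intervals lie at chr5:36876701-36876768 (NIPBL-DT), chr11:83071924-83072051 (RAB30-DT), chr2:61144970-61145067 (C2orf74-DT), chr4:112231597-112231739 (AP1AR-DT), chr7:155003125-155003420 (PAXIP1-DT) and chr9:135907547-135907811 (CAMSAP1-DT). No annotated exon falls inside any of them. The CAMSAP1-DT interval of 265 bases holds 10 GC boxes, the AP1AR-DT interval 1 GC box and 2 overlapping CCAAT motifs, and the C2orf74-DT interval none of the 3.

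Pairs on chromosome 8, which holds 9 members, were left out of the count of intervals. Among the rest, intervals of 1 to 300 bases between outermost starts were read for 98 pairs, and 96 of these held no annotated exon. In those 96, the median length was 99.5 bases, 51 held a GC box, 31 a CCAAT motif, 8 the ETS motif and 3 the letters TATAAA. RefSeq promoter windows (GRCh38.p14), from 250 bases before to 50 after the start, were found for 135 of the 170 lncRNAs. Their median GC content was 68.7%, against 58.7% over 35116 promoters, and their median number of CpG was 31, against 14. The GC box was present in 72.6% of them and in 45.0% of all promoters, CCGGAAGT in 14.1% and 4.14%, CCAAT in 34.8% and 34.6%, and TATAAA in 5.19% and 11.5%. The windows of 147 paired genes, which overlap those of the lncRNAs, had a median GC content of 68.0% and the GC box in 74.1%. The 35116 promoters were not limited to expressed genes, whereas the members were chosen for their counts, and how far the differences go with expression was not tested. A match describes letters and does not show that a factor is bound.

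Starts lay close together. Between canonical transcripts of GENCODE 44, the distance from the lncRNA's start to the coding gene's start had a median of 155 bases and quartiles of 91.75 and 298.5 bases. It was 1 to 300 bases in 117 pairs and over 1000 bases in 15, and in 11 pairs the 2 transcripts ran over each other, among them EDIL3-DT, APCDD1L-DT, TMED2-DT and MMADHC-DT. The lncRNAs were shorter and had fewer exons than their coding partners: the canonical transcript had a median of 3 exons against 10, and 40 lncRNAs had a single exon. Of the 170 lncRNA genes, 67 overlapped no other annotated gene and 98 overlapped a gene on the opposite strand. By whole genes rather than canonical transcripts, 52 of the lncRNA genes overlapped their paired gene.

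**Figure D1:**
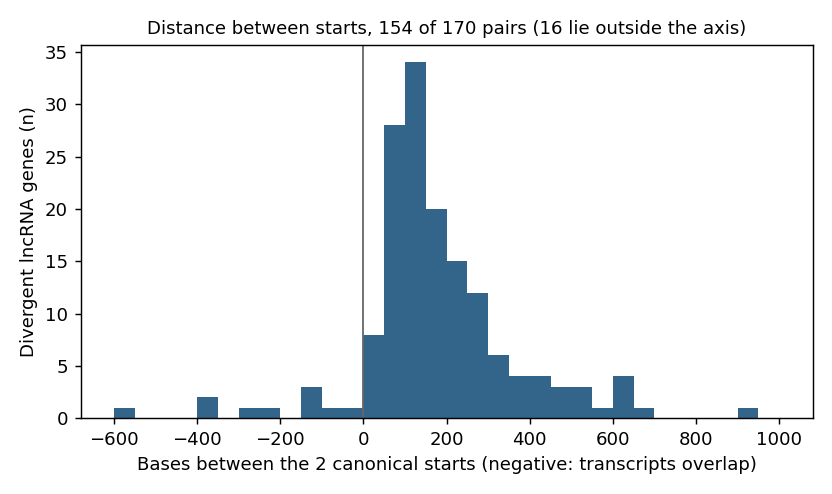
Distance in bases (x axis) between the canonical starts of each lncRNA and its paired coding gene, as the number of pairs per 50 bases (y axis). The 154 pairs shown peak between 50 and 150 bases, and 16 pairs lie outside the axis.

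Letters linked to U1 protection and early cleavage differed between the 2 directions of these promoters. In the first 1000 bases of genomic sequence downstream of the start, a 5′ splice site spelled GGTAAG or GGTGAG was present in 49.4% of the lncRNAs and in 67.1% of the paired genes. The poly(A) signal AATAAA was present in 35.9% of the lncRNAs and 15.3% of the paired genes, and it came before any such splice site in 25.3% and 5.88%. Both were read on the transcribed strand only. Over all tested protein-coding genes AATAAA came first in 7.95%, and over 4500 other tested lncRNAs, not limited by abundance, in 30.3%.

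The lncRNAs were mostly scarce beside their coding genes. On the scale of CPM per kb of summed exon length, which allows levels of different genes to be compared, the median level was 1.05 for the lncRNAs and 7.90 for the paired genes. The log2 ratio of lncRNA to paired gene, computed per library with a pseudocount of 0.5 CPM per kb, had a median of -2.35 over pairs. It was below 0 in all 9 libraries for 135 pairs, above 0 in all for 13 and mixed for 22. Within a pair this ratio was steady, with a median SD of 0.354 over the 9 libraries, and the median ratio over pairs lay between -2.45 and -2.26 in every library.

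**Figure D2:**
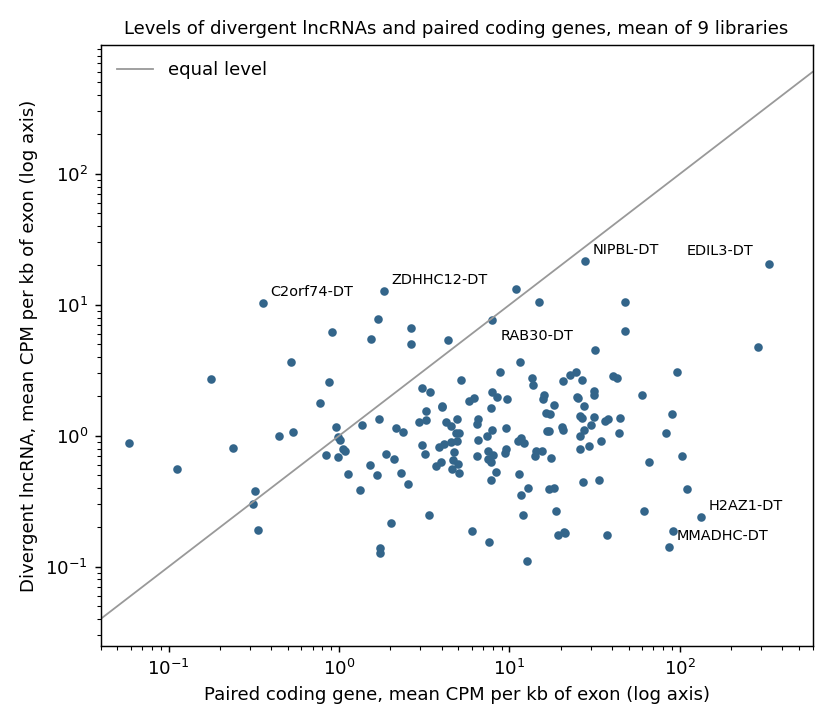
Mean level of each divergent lncRNA (y axis) against its paired coding gene (x axis), both in CPM per kb of exon on log axes, with 1 point per pair and the mean of 9 libraries. Most points lie under the line of equal level, while C2orf74-DT and ZDHHC12-DT lie far above it and NIPBL-DT and RAB30-DT close to it.

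A few members held much of the signal: the 10 most abundant carried 48.0% of the 533617 counts and EDIL3-DT alone 13.1%. EDIL3-DT (ENSG00000250320.6, chromosome 5, 84382424 to 84490765, plus strand) runs away from the start of EDIL3, which encodes a secreted integrin-binding matrix protein. Its level was 163, 120 and 144 CPM with the vector, against 231, 209 and 133 CPM for clone A1 and 250, 273 and 145 CPM for clone A4. In both NCBP2 clones replicate C was well under replicates A and B, and within the vector range. EDIL3 itself was far more abundant than its lncRNA, with a log2 ratio of lncRNA to coding gene per kb of -4.02. NIPBL-DT (ENSG00000285967.1, chromosome 5, 36864425 to 36876700, minus strand) starts 69 bases from the outermost start of NIPBL, the loader of cohesin. It was measured at 169, 110 and 161 CPM with the vector, 190, 150 and 142 CPM for clone A1 and 157, 169 and 103 CPM for clone A4, and the groups overlapped throughout. Per kb it reached 21.6, against 27.8 for NIPBL.

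The other abundant members were TMEM161B-DT (68.6 CPM on average), GARS1-DT (60.1), RAB30-DT (57.8), SLC12A2-DT (45.9), C2orf74-DT (32.2), UBA6-DT (27.2), BAIAP2-DT (26.1) and APCDD1L-DT (24.1). Their coding genes include the glycyl-tRNA synthetase GARS1, the Golgi GTPase RAB30, the sodium, potassium and chloride cotransporter SLC12A2 and the ubiquitin-activating enzyme UBA6. Between the NCBP2 arm and the vector libraries the largest of these 8 log2 fold changes was 0.38, for APCDD1L-DT (SE 0.254). Over the alternative settings it ran from 0.26, without vector replicate B, to 0.57, without vector replicate C. The highest ratios to the paired gene, as means over the 9 libraries, belonged to C2orf74-DT (3.69 on the log2 scale per kb), ZDHHC12-DT (2.51) and MAGEA3-DT (2.32). In the arm the coding gene C2orf74 differed by 1.74 and C2orf74-DT by 0.12, and 0 of the paired genes passed the edgeR threshold. The lowest ratios belonged to H2AZ1-DT (-7.51), beside the gene of the histone variant H2A.Z, MMADHC-DT (-7.07) and TMEM30A-DT (-7.04). For H2AZ1-DT and MMADHC-DT the opposite strand of the lncRNA gene, which holds their abundant partners, carried 92.8% and 83.3% of the stranded counts, against a median of 1.44% over the members. Up to 6.42% of a library's stranded counts were on the strand opposite to the annotated gene, and the part of such reads in scarce lncRNAs was not tested.

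No divergent lncRNA changed beyond the threshold in the NCBP2 arm. Of the 170, all of which were tested, 0 passed a Benjamini-Hochberg adjusted p under 0.05 by edgeR's quasi-likelihood test, against 0.0184% (4) of all 21682 genes tested, while DESeq2 and limma-voom each called 1 (SAP30-DT and COX10-DT). At an unadjusted p under 0.05 there were 16 members, 10 higher and 6 lower, which is 9.41% against 5.71% of all genes. Of the 170 paired genes 19 were under this limit, so the share above that of all genes was not particular to the lncRNAs. The median log2 fold change was 0.08 over the members (quartiles -0.17 and 0.31), 0.00 over the paired genes, 0.02 over all genes and 0.07 over 1705 other lncRNAs with at least 450 counts. The median SE of a member's fold change was 0.342, against 0.203 for the paired genes, so that shifts of this size in single members were not detectable. In these bulk libraries a lower level per cell and fewer cells with the RNA cannot be told apart.

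**Figure D3:**
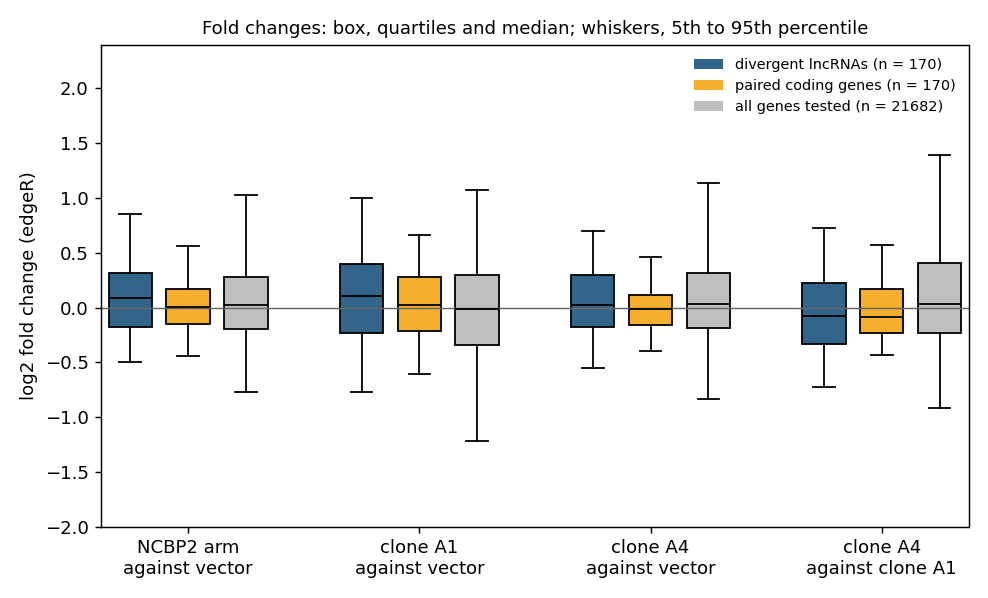
Log2 fold changes by edgeR (y axis) in 4 comparisons (x axis) for the 170 divergent lncRNAs, their 170 paired coding genes and all 21682 genes tested. Boxes give quartiles and median, whiskers the 5th to 95th percentile, and every box spans 0.

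The levels of all 6 NCBP2 libraries lay above all 3 vector libraries for 2 members, SAP30-DT and ZDHHC12-DT, and below them for 3, PAXIP1-DT, TOX-DT and AP1AR-DT. Over all genes tested this held for 1.47% (higher) and 2.26% (lower), and the members' shares were 1.18% and 1.76%. Without clone A1 replicate A, a check added after the values were seen, the counts were 5 and 5, or 2.94% each, against 2.46% and 2.91% of all genes.

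SAP30-DT (ENSG00000272870.3, chromosome 4, 173349543 to 173370721, minus strand) had the smallest edgeR adjusted p of the members in the NCBP2 arm. It is paired with SAP30, a subunit of the SIN3 histone deacetylase complex. Its level was 2.66, 2.32 and 4.88 CPM with the vector, 12.6, 6.75 and 5.97 CPM for clone A1 and 7.20, 10.0 and 5.17 CPM for clone A4. The lowest NCBP2 library, clone A4 replicate C, lay just above the highest vector library, replicate C. The vector mean of 3.29 ± 1.39 CPM (SD, n = 3) compares with 8.44 ± 3.62 (SD, n = 3) for clone A1 and 7.46 ± 2.43 (SD, n = 3) for clone A4. The log2 fold change in the NCBP2 arm was 1.27 (SE 0.358, edgeR adjusted p 0.501), and over the alternative settings the adjusted p ran from 0.0499 with DESeq2 to 1.0. SAP30 itself differed by 0.44 (SE 0.204, adjusted p 0.859), and the 33 tested genes within 5 Mb on either side had a median of 0.08.

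ZDHHC12-DT (ENSG00000223478.1, chromosome 9, 128724435 to 128733199, plus strand) is paired with a gene of a protein palmitoyltransferase. It was measured at 5.52, 4.61 and 3.42 CPM with the vector, 14.7, 8.52 and 7.71 CPM for clone A1 and 7.39, 6.01 and 5.93 CPM for clone A4. Every library of clone A1 lay above every library of clone A4, which in turn lay above the vector group, and clone A1 replicate A was the highest. The log2 fold change in the arm was 0.89 (SE 0.326, edgeR adjusted p 0.691), and 0.65 without that library. ZDHHC12 differed by 0.56 (SE 0.491).

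TOX-DT (ENSG00000167912.6, chromosome 8, 59119040 to 59123478, plus strand) and its partner TOX, an HMG-box DNA-binding protein, were both lower. The lncRNA was at 2.75, 4.47 and 3.51 CPM with the vector, 1.16, 2.58 and 2.35 CPM for clone A1 and 1.95, 1.80 and 1.61 CPM for clone A4. The coding gene was at 9.12, 12.1 and 9.71 CPM, 3.94, 3.42 and 2.73 CPM, and 5.04, 6.10 and 3.36 CPM in the same order. Neither gene's NCBP2 libraries overlapped the vector libraries. The log2 fold changes in the arm were -0.90 for TOX-DT (SE 0.325, edgeR adjusted p 0.662, and -0.57 by limma-voom) and -1.33 for TOX (SE 0.275, adjusted p 0.189), while the median over 40 neighbouring genes was 0.01.

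AP1AR-DT (ENSG00000260526.1, chromosome 4, 112229561 to 112231596, minus strand) was lower in all NCBP2 libraries, unlike its partner AP1AR, a regulator of the AP-1 vesicle adaptor. The lncRNA was at 3.21, 2.60 and 2.85 CPM with the vector, 1.09, 1.21 and 1.67 CPM for clone A1 and 2.29, 1.66 and 1.55 CPM for clone A4. The highest NCBP2 library, clone A4 replicate A, was below the lowest vector library. In the arm the fitted log2 fold change came to -0.87 (SE 0.328, edgeR adjusted p 0.715), against 0.17 (SE 0.342) for AP1AR, whose groups overlapped.

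PAXIP1-DT (ENSG00000273344.1, chromosome 7, 155003421 to 155005703, plus strand) is paired with PAXIP1, a BRCT-domain protein of the DNA damage response and of a histone methyltransferase complex. It was at 5.24, 3.40 and 5.29 CPM with the vector, 1.48, 3.36 and 2.7 CPM for clone A1 and 1.76, 3.14 and 1.46 CPM for clone A4. Clone A1 replicate B nearly reached vector replicate B. In the arm the fitted log2 fold change came to -1.0 (SE 0.347, edgeR adjusted p 0.649), and PAXIP1 differed by -0.44 (SE 0.227). INSIG1-DT and RBM33-DT, chosen after their values were seen, lie within 1 Mb of it and differed by -0.98 (SE 0.401, adjusted p 0.787) and -1.04 (SE 0.412, adjusted p 0.761). Without vector replicate A the RBM33-DT difference was -0.62. Their partners INSIG1, which holds back cholesterol synthesis, and RBM33, an RNA-binding protein, differed by -0.96 (SE 0.188, adjusted p 0.165) and -0.52 (SE 0.139, adjusted p 0.447). INSIG1-DT was at 2.84, 3.36 and 2.24 CPM with the vector, 2.29, 1.77 and 1.03 CPM for clone A1 and 0.713, 1.80 and 0.985 CPM for clone A4. Clone A1 replicate A overlapped the vector range and the other 5 NCBP2 libraries lay below it.

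COX10-DT, chosen because limma-voom called it, is paired with COX10, an enzyme in the making of heme A for cytochrome c oxidase. It stood at 26.7, 12.6 and 24.4 CPM with the vector, 13.6, 9.76 and 11.4 CPM for clone A1 and 15.0, 16.1 and 10.8 CPM for clone A4. Vector replicate B lay within the range of the NCBP2 libraries, and the other two vector libraries lay above all 6. By edgeR the difference in the arm was -0.73 (SE 0.25, adjusted p 0.633), and COX10 differed by -0.19 (SE 0.163).

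**Figure D4:**
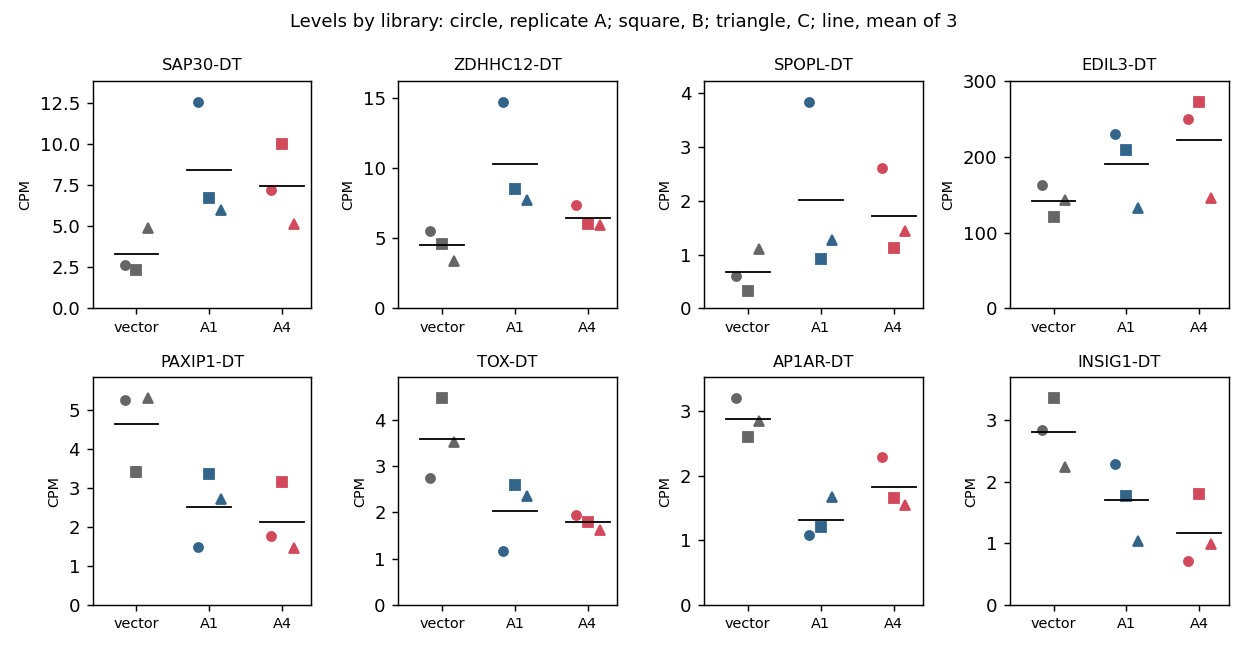
Level in CPM (y axis, from 0) of 8 divergent lncRNAs in the 9 libraries, grouped as vector, clone A1 and clone A4 (x axis), with the mean of 3 as a line. SAP30-DT and ZDHHC12-DT do not overlap between the vector and NCBP2 libraries, nor do PAXIP1-DT, TOX-DT and AP1AR-DT, while SPOPL-DT, EDIL3-DT and INSIG1-DT do.

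Several of these differences were shared by the surrounding genes. For each member, the median log2 fold change of all tested genes within 5 Mb on either side was taken, and 16 members had a median of at least 0.3 in size in the NCBP2 arm, a limit set after the values were seen. In 4, all on the long arm of chromosome 7, neighbours were lower, and all 4 lncRNAs were lower too: KDM7A-DT, PAXIP1-DT, INSIG1-DT and RBM33-DT, with neighbour medians of -0.41, -0.70, -0.67 and -0.64. PAXIP1-DT, INSIG1-DT and RBM33-DT lie within 1 Mb and share most of their neighbours. In clone A4 alone, KDM7A-DT differed by 0.005 from the vector, with a neighbour median of -0.455. For the other 12 members neighbours were higher, and 9 of the 12 lncRNAs were higher. Of these 12, 10 lie on chromosome 2, among them MMADHC-DT (1.01, SE 0.519, neighbours 0.52) and SPOPL-DT (1.45, SE 0.579, neighbours 0.32), the largest fitted difference of any member in the arm. Over the alternative settings MMADHC-DT ran from 0.68, with both strands counted together, to 1.52, without vector replicate B. SPOPL-DT rested on 17 to 124 counts a library. The other two were CAMSAP1-DT on chromosome 9 (0.67, SE 0.240, neighbours 0.45) and EOLA1-DT on chromosome X (0.17, SE 0.433, neighbours 0.31), whose sign turned without clone A4 replicate A (-0.019). Leaving out other single libraries put EOLA1-DT between 0.084 and 0.29. Across the 170 members, which share promoters and neighbours and the same libraries, the fold change correlated with the neighbour median at r = 0.453 (rho = 0.290) and with the paired gene's fold change at r = 0.391 (rho = 0.303). Over the 154 members with neighbour medians under 0.3 in size, the correlation with the paired gene was r = 0.304 (rho = 0.204). What moves with these chromosome regions was not tested.

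**Figure D5:**
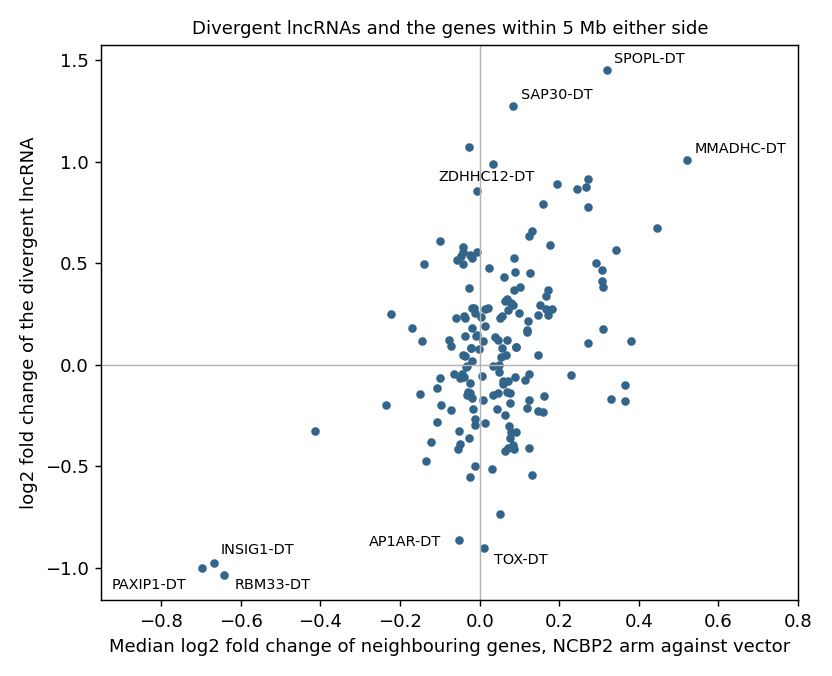
Log2 fold change of each divergent lncRNA in the NCBP2 arm against vector (y axis) against the median log2 fold change of the tested genes within 5 Mb on either side (x axis), 1 point per lncRNA. PAXIP1-DT, INSIG1-DT and RBM33-DT lie at the lower left with neighbour medians of -0.70 to -0.64, whereas SAP30-DT, TOX-DT and AP1AR-DT lie near 0 on the x axis.

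The ratio of lncRNA to coding gene within a library compares the 2 directions of a promoter. The median difference between the fold change of a lncRNA and that of its partner was 0.06 in the arm. The ratio lay higher in all 6 NCBP2 libraries than in all 3 vector libraries for 6 pairs and lower for 0. For comparison, 904 divergent pairs of a tested lncRNA and a coding gene had starts at most 1000 bases apart. Their ratio lay apart in this way for 1.66% (15 pairs, higher) and 0.774% (7 pairs, lower). Of the 904 pairs, 145 were members, and the other 759 gave 1.45% (11 pairs) and 0.922% (7 pairs). The members' share of 6 pairs in 170 is 3.53%, which is not a like-for-like share, since not all 170 have the layout of the 904. Unlike the 759 pairs, the members were chosen for at least 450 counts, and some have starts that overlap or lie over 1000 bases apart. The 6 pairs were APPBP2-DT (0.51 on the log2 scale), EDIL3-DT (0.49), OSMR-DT (0.53), TMEM167B-DT (0.61), TOX-DT (0.52) and ANKRD42-DT (0.40), named because there were so few. For EDIL3-DT the log2 ratio was -4.38, -4.17 and -4.47 with the vector, -4.01, -3.83 and -4.07 for clone A1 and -3.63, -3.67 and -3.93 for clone A4. The 6 pairs were picked for this separation out of 170, so it is given with no test. EDIL3 itself differed by 0.00 (SE 0.190) and EDIL3-DT by 0.54 (SE 0.227, edgeR adjusted p 0.817), or 0.33 by limma-voom. For TOX-DT both genes were lower, the coding gene by more. Its groups almost touched, with a log2 ratio of -1.0951 in clone A4 replicate B and -1.0955 in vector replicate C. For ANKRD42-DT the nearest values were 1.09 in clone A4 replicate A and 1.04 in vector replicate A. The lncRNA and coding gene differed by 0.53 and -0.08 for APPBP2-DT and by 0.25 and -0.37 for OSMR-DT. They differed by 0.23 and -0.44 for TMEM167B-DT and by 0.21 and -0.22 for ANKRD42-DT.

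In clone A1, 0 of 170 members passed the edgeR threshold (0.0646% of all genes did), while DESeq2 called ZDHHC12-DT, limma-voom COX10-DT, and edgeR with no filter on low counts SAP30-DT. At an unadjusted p under 0.05 there were 14, 9 higher and 5 lower, 8.24% against 7.51% of all genes, and 20 of the 170 paired genes. The 3 libraries lay above the vector group for 15 members and below it for 11, against 6.18% and 8.06% of all genes. Without replicate A these counts were 30 and 17, or 17.6% and 10.0% of the members, against 11.5% and 11.7% of all genes. The median log2 fold change was 0.11 over the members and 0.02 over the paired genes, and without replicate A the members' median was 0.01. The largest non-overlapping differences upward were SAP30-DT (1.36), ZDHHC12-DT (1.19), FGGY-DT (1.16), FBXO38-DT (1.12), YPEL3-DT (1.0) and ITPR1-DT (0.92). Without replicate A FBXO38-DT differed by 0.65. FGGY-DT ran from 0.83 to 1.87 over the alternative settings, the highest being without vector replicate C. FBXO38-DT, beside the gene of an F-box protein, was at 18.2, 8.36 and 8.23 CPM against 6.17, 5.23 and 4.54 CPM in the vector libraries, with clone A4 at 14.2, 5.05 and 13.1 CPM. All 3 libraries of clone A1 and 2 of the 3 libraries of clone A4 lay above the vector group. Downward they were AP1AR-DT (-1.12), MFF-DT (-0.90), PAXIP1-DT (-0.88), TOX-DT (-0.81), GMDS-DT (-0.80) and KDM7A-DT (-0.77). Without replicate A TOX-DT differed by -0.53. By limma-voom FBXO38-DT differed by 0.66, ITPR1-DT by 0.58, MFF-DT by -0.57 and TOX-DT by -0.40. Of these 12 members the smallest edgeR adjusted p was 0.297, for ZDHHC12-DT.

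In clone A4, 0 of 170 members passed (0.115% of all genes did), with edgeR, DESeq2 and limma-voom. At an unadjusted p under 0.05 there were 11, 5 higher and 6 lower, 6.47% against 5.25% of all genes, and 12 of the 170 paired genes. The libraries lay above the vector group for 10 members and below it for 10, against 6.2% and 5.86% of all genes. The median log2 fold change was 0.02 over the members and -0.01 over the paired genes. The largest non-overlapping differences upward were SPOPL-DT (1.34), SAP30-DT (1.18), EPCAM-DT (0.89), FRG1-DT (0.71), ZDHHC12-DT (0.51, and 0.33 without vector replicate C) and PPP1R21-DT (0.50). Downward they were RBM33-DT (-1.36), INSIG1-DT (-1.27), PAXIP1-DT (-1.13), TOX-DT (-1.0), AP1AR-DT (-0.65) and STAM-DT (-0.62). STAM, an endosomal sorting adaptor, differed by -0.51 beside STAM-DT (SE 0.159, adjusted p 0.522). Of these 12 the smallest edgeR adjusted p was 0.647, for SAP30-DT. Both clones were compared with the same vector libraries.

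Between the NCBP2 clones, 0 of 170 members passed (0.161% of all genes did), with edgeR, DESeq2 and limma-voom. At an unadjusted p under 0.05 there were 8, 4 in each direction, 4.71% against 6.63% of all genes, and 8 of the 170 paired genes. Clone A4 lay above clone A1 without overlap for 8 members and below it for 14, against 7.92% and 5.72% of all genes. Without clone A1 replicate A these counts were 16 and 23, or 9.41% and 13.5% of the members, against 11.7% and 9.99% of all genes. The median log2 fold change was -0.08 over the members and -0.09 over the paired genes, and the members' median was 0.02 without that library. Higher in clone A4 were NUP50-DT (0.96), GMDS-DT (0.88), MFF-DT (0.88), COPB2-DT (0.86), ZNF584-DT (0.86) and KDM7A-DT (0.77), none past the threshold. Without clone A1 replicate A the difference was 0.47 for NUP50-DT and 0.49 for ZNF584-DT, and by limma-voom it was 0.52 for ZNF584-DT and 0.58 for MFF-DT. GMDS-DT, beside the gene of the first enzyme of GDP-fucose synthesis, was at 5.55, 3.75 and 4.51 CPM with the vector, 3.55, 2.23 and 2.14 CPM for clone A1 and 5.08, 5.16 and 4.30 CPM for clone A4. Clone A1 was the group that stood apart (edgeR adjusted p 0.587 for clone A4 against clone A1). NUP50-DT had 4 counts in clone A1 replicate A and 42 to 111 elsewhere. Lower in clone A4 were NCK1-DT (-0.91), YPEL3-DT (-0.85), ZKSCAN2-DT (-0.80), SUGT1-DT (-0.74), TMEM11-DT (-0.72) and HCCS-DT (-0.70). For NCK1-DT the opposite strand held 73.0% of the stranded counts, and with both strands counted together its difference was 0.48, while that of YPEL3-DT was -1.33. ZKSCAN2, a zinc finger gene, differed by -0.70 beside ZKSCAN2-DT (SE 0.167, adjusted p 0.235).

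The members were also grouped by the role of the paired gene. The 33 lncRNAs beside membrane, signalling or cytoskeleton genes had a median log2 fold change of 0.25 in the arm, with 22 higher, and the 24 beside transcription factor or chromatin genes had -0.04, with 10 higher. The 22 beside RNA processing or translation genes had 0.09, the 27 beside mitochondria or metabolism genes 0.04, the 33 beside protein turnover or trafficking genes 0.09 and the 12 beside DNA repair, replication or cell cycle genes -0.07. None of these classes was tested against the others. The ratio to the coding gene was lowest beside the DNA repair, replication or cell cycle genes, with a median of -4.18 on the log2 scale per kb, and among the named roles highest beside the transcription factor or chromatin genes, at -1.63.

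Genes whose proteins terminate or degrade such RNAs were described at the RNA level, from a list of 51. The list covered the exosome, its nuclear adaptors, the cap-binding complex, U1 snRNP, cleavage factors and Integrator, with the overexpressed NCBP2 itself left out. The listed symbol MPP6 matched no gene name and was not tested. Of the 50 that were tested, 0 passed the edgeR threshold in any comparison. The median log2 fold change was 0.03 in the arm, 0.05 in clone A1, 0.01 in clone A4 and -0.14 between the clones. At an unadjusted p under 0.05 the arm and clone A1 each had 1 gene lower, CPSF4, a cleavage and polyadenylation subunit (-0.55 in the arm, SE 0.230, adjusted p 0.823), and clone A4 against clone A1 had 1 lower, the exosome subunit EXOSC2. NCBP1, the partner of NCBP2, differed by -0.11 (SE 0.142), SRRT by 0.11 (SE 0.234), ZC3H18 by -0.09 (SE 0.150), the exosome helicase MTREX by 0.38 (SE 0.251) and the nuclease EXOSC10 by 0.10 (SE 0.165).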

How the data were processed

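The authors deposited raw counts of reads per gene for 9 libraries, as whole numbers with no normalization. Per the submitters' processing notes, STAR 2.7.1a and GRCh38 were used, while the annotation release is not given in the sources used here. Per the layout of the deposited tables, column 3 holds counts on the gene's strand and was used throughout, and 4 lines name no gene and held 44.5% to 63.6% of reads. Of 60609 identifiers, 60295 matched GENCODE release 44, 49338 with the same version. Those 4 lines are headed unmapped, multimapping, no feature and ambiguous, so reads that could belong to several genes or places are not in the gene counts.

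Libraries were grouped by title. edgeR 4.0.16 in R 4.3.3 (filterByExpr, TMM, robust quasi-likelihood test, Benjamini-Hochberg over 21682 genes, adjusted p under 0.05) was fitted on 3 groups, and on 2 groups for the NCBP2 arm. It was tested on simulated data. CPM used TMM-scaled library sizes. DESeq2 1.42.0 and limma 3.58.1 (voom), other scaling, no filter, both strands, a replicate block, only the libraries compared, members with at least 900 counts and leaving out each library were alternatives. Libraries of a group differed by more than sampling noise, with a chi-square per degree of freedom of at least 28.3. Replicate letters were not taken to pair the libraries.

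Genes named were those past the threshold (none), the 10 most abundant members, the 3 highest and 3 lowest ratios, and up to 6 members in each direction with the largest non-overlapping change per comparison. The members, lists and rules were chosen with earlier results of these data known. Intervals and floors were not needed, since no share of a single sample was compared. Promoters came from RefSeq tables and other sequence from GRCh38.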

Additional observations from a re-analysis of the deposited data

Results flagged for a closer look

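A pair of lncRNAs, picked for this pattern, lay on opposite sides of the vector libraries in the 2 NCBP2 clones. Over all genes tested, clone A1 lay above the vector group without overlap for 6.18% and below it for 8.06%. For clone A4 these shares were 6.2% and 5.86%. The share of all genes on opposite sides in the clones was not counted, so whether this pattern is unusual among the members cannot be told. COPB2-DT, beside the gene of a coatomer subunit, was at 1.41, 1.48 and 1.58 CPM in clone A1, below all 3 vector libraries (2.32, 2.32 and 2.29 CPM), and at 2.54, 2.48 and 3.11 CPM in clone A4, above all 3. The difference between the clones was 0.86 in log2 fold change (SE 0.346, edgeR adjusted p 0.660) and did not pass the threshold. TMEM11-DT, beside the gene of a mitochondrial inner membrane protein, was at 5.49, 4.01 and 4.91 CPM in clone A1, above the vector libraries (3.38, 3.94 and 3.64 CPM), and at 3.34, 3.30 and 2.08 CPM in clone A4, below them. Its difference between the clones was -0.72 (SE 0.318, edgeR adjusted p 0.724) and did not pass either.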

How the results depend on the processing

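The count of members past the threshold, 0 in each of the 4 comparisons, became 1 with DESeq2 in the arm (SAP30-DT, 1.28) and in clone A1 (ZDHHC12-DT, 1.20), 1 with voom and quality weights in the arm and in clone A1 (COX10-DT), and 1 with no filter on low counts in clone A1 (SAP30-DT, 1.33). It was 0 under all other alternatives, including each library left out. With voom the members' median log2 fold change was 0.027 in clone A1 and 0.012 for clone A4 against clone A1, and the median difference from the paired gene was 0.016 in the arm, -0.019 in clone A1, 0.13 in clone A4 and 0.031 between the clones. With both strands counted together that difference was 0.075 in clone A1, and NCK1-DT reversed to 0.48 for clone A4 against clone A1. The cause was not tested. Over all genes the calls, 4 in the arm, 14 in clone A1, 25 in clone A4 and 35 between the clones, became 103, 274, 185 and 246 with DESeq2, 216, 297, 233 and 149 with voom, and 20, 312, 163 and 231 with no filter.

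Leaving out each library in turn, the members' median ran from 0.028 to 0.11 in the arm, 0.0065 to 0.14 in clone A1, -0.0093 to 0.08 in clone A4 and -0.096 to 0.016 between the clones. The median difference from the paired gene ran from 0.041 to 0.11, 0.0020 to 0.12, 0.031 to 0.12 and -0.036 to 0.025 in the same order. Without clone A1 replicate A, an alternative added after seeing the data, members apart from the other group numbered 5 higher and 5 lower in the arm (2.46% and 2.91% of all genes), 30 and 17 in clone A1 (11.5% and 11.7% of all genes), and 16 and 23 for clone A4 against clone A1 (11.7% and 9.99% of all genes). EOLA1-DT in the arm ran from -0.019 (reversed, without clone A4 replicate A) to 0.29 with each library left out.

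With the letter as a replicate block the count stayed 0 in all comparisons and the medians were 0.06, 0.09, 0.04 and -0.07. Same-letter libraries of different groups had correlations of deviations between -0.10 and 0.18, over 0.1 in 6 of 9 pairs, and different letters between -0.27 and 0.22, over 0.1 in 4 of 18. No label says that a letter marks a shared batch, and not every same-letter pair was over 0.1, so the letters were not used to pair the libraries, and whether they mark something shared is not settled by these values. The block changed no call among the members, and moved all genes called from 4 to 13 in the arm, 14 to 38 in clone A1, 25 to 53 in clone A4 and 35 to 51 between the clones. Depth limits the scarce members: the lowest sum over 9 libraries was 453 counts, and 6 members had under 10 counts in some library.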

Other observations

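Counts on the strand opposite to the lncRNA, which above entered only the setting that adds both strands, reached at least 450 in 28 members. In 12 members the opposite strand held over 50% of the stranded counts, and all 12 overlap an annotated gene there, for example USP34-DT (98.4%, with XPO1), EOGT-DT (95.1%, with TMF1 and UBA3) and WDR5B-DT (94.8%, with KPNA1).

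The summed level of the 170 lncRNAs was 1394, 1158 and 1425 CPM with the vector, 1669, 1405 and 1318 CPM for clone A1 and 1570, 1480 and 1252 CPM for clone A4, and the groups overlapped. Without EDIL3-DT it was 1231, 1037 and 1281 CPM, 1438, 1196 and 1185 CPM, and 1320, 1207 and 1107 CPM in the same order.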
